A study of Homo sapiens with 2 samples.

Results

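Ribosomes are made in the nucleolus, where RNA polymerase I transcribes the genes of ribosomal RNA (rRNA) into 1 long precursor. Small nucleolar ribonucleoproteins (snoRNPs) modify this precursor, the small subunit processome and the large subunit assembly factors cut and fold it, and the subunits are then exported. The genes of these factors are known for high expression in growing and tumour cells and as classical targets of the transcription factor MYC. A list of 50 such genes was examined after knockdown by siRNA of FGF-AS, a transcript antisense to FGF2, the gene of basic fibroblast growth factor. Members were taken by gene symbol, as all probe sets annotated to exactly 1 of the 50 symbols. The rule uses no measured value, but the list was drawn up with earlier results of these data known. The array held 93 such probe sets for 45 of the 50 genes, out of 19775 genes with a single-symbol probe set. NOP56, DKC1, BOP1, GNL3 and DDX18 have only probe sets annotated to several symbols or none and received no value.

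Transcripts were measured on Affymetrix U133 Plus 2.0 arrays, on which a probe set of short oligonucleotides reports a transcript as a signal intensity. Both groups were Seg-1 cells, an adherent line once taken for esophageal adenocarcinoma and identified per the labels as the lung cancer line H460. Both were reverse transfected with siRNA in Lipofectamine RNAiMAX and harvested at 72 hours. One group received a negative control siRNA without homology to known genes and the other an siRNA against FGF-AS, at final concentrations given for the study as 25 to 200 nM, without the value for either array. Each group held 1 array and none came from untransfected cells, so no difference has a replicate check, no p-value is given, and an effect common to both transfections would not show. Total RNA was extracted from whole cultures, so a lower level per cell and fewer cells with a transcript cannot be told apart, and intensities give a gene's share of the labelled RNA rather than its amount per cell.

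Values are given as signals and as a log2 ratio of the FGF-AS siRNA array over the control array. Before taking logs, 6.1 (the 25th percentile of the non-control signals) was added to each signal, which understates the ratio of dim probe sets. A gene stood for its brightest single-symbol probe set and counted as measured when its mean over both arrays reached 23.9, the median of these means on the array, as 12347 genes did. All 45 members with a probe set were measured, and 42 also reached a stricter minimum of 145.2 (7718 genes). The only spread available was the disagreement between probe sets of 1 gene, which gave an SD of the log2 ratio of 0.36 above the stricter minimum (3048 genes) and 0.58 between the minima (2362 genes). It covers neither cultures nor hybridisations.

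As a check of the labels, NUDT6, the gene that gives rise to FGF-AS, read 376.9 on the control array and 104.5 on the FGF-AS siRNA array (27.7% of control), with 267 and 77.8 (29.1%) on its second probe set. FGF2 stood at log2 ratios of 0.43 and 0.05 on its probe sets and AGO2, the Argonaute-2 gene, at -0.62. Keratin genes of epithelial cells were well above the minimum (KRT18 10152.5 and 9327.2, KRT8 3475.7 and 3780.9, KRT19 316.5 and 311.6). The epithelial marker EPCAM was dim, at 34 and 43.8. A further 1 of the 5 epithelial markers, CDH1, and the lung lineage factor NKX2-1 lay under the minimum. The 4 lung markers summed to 182.3 and 212.9. Markers of other cell types summed to 537.7 and 311.3 for 5 fibroblast genes (2 under the minimum), 72.3 and 88.5 for 3 leukocyte genes (1 under it) and 50.7 and 70.5 for 3 endothelial genes (2 under it), on the control and the FGF-AS siRNA array, and their part in the results was not tested.

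Transcripts of the nucleolar machinery differed little between the arrays, and more members were higher than lower with FGF-AS siRNA. Of the 45 measured members, 31 (68.9%) had a log2 ratio above 0, against 48.1% of all measured genes and 49.4% of those at the stricter minimum. Under median centring these were 33 members and 56.2% of measured genes, and under quantile normalization 32 members and 56.1%. Median centring subtracted the median of all measured non-control probe sets, which left the median over genes at 0.05 rather than at 0. With the mean over measured probe sets they were 26 of 45 members and 43.2% of genes. The median over members was 0.13 (1.10-fold; SD across members 0.24), beside -0.02 (SD 0.48) for all measured genes and -0.00 (SD 0.38) at the stricter minimum. No member passed 1.5-fold on its brightest probe set, whereas 17.5% of measured genes and 11.5% of those at the stricter minimum did, and none passed 2-fold, against 4.77% and 2.1%. Members ran from -0.52 (POLR1C) to 0.50 (POLR1A). Only 8 members differed by more than the probe set SD for their signal, of which RRP1B, PES1, TCOF1 and DDX10 were higher and TAF1B, TAF1C, POLR1C and NOP14 lower. RRP1B is among them by its brightest probe set only, since its second probe set gave -0.57 and the mean of both -0.06. TAF1B and POLR1C were lower on both of their probe sets, but the means over these, -0.24 and -0.35, lay within the SD. On the deposited scale, 28.3% of measured genes differed by more than this SD (13.5% higher and 14.8% lower). The split of members depended on the scaling. Under median centring TAF1B (-0.295), TAF1C (-0.34) and NOP14 (-0.30) fell within the SD, and POLR1C (-0.45) did not. The members named as higher stayed past it, and FBL (0.37), MRTO4 (0.37), RRP9 (0.38), WDR12 (0.39), NOC3L (0.40) and LTV1 (0.40) joined them. The share of all genes past it under that scaling was not counted.

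**Figure D1:**
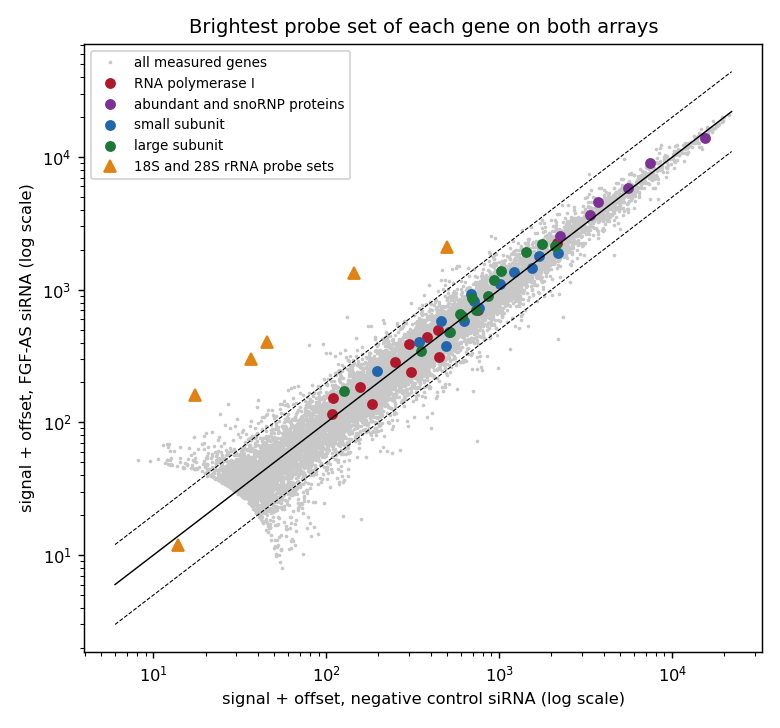
Signal plus the offset of 6.1 on the FGF-AS siRNA array (vertical, log scale) against the negative control siRNA array (horizontal, log scale) for the brightest probe set of 12347 measured genes (grey), the 45 members (coloured by role) and the 6 rRNA control probe sets (triangles). The solid line marks equal signal and the dashed lines a 2-fold difference; all members lie between the dashed lines, and 5 of the 6 rRNA probe sets lie above them.

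The median log2 ratio was 0.14 for the 12 RNA polymerase I factors (8 above 0), 0.15 for 6 abundant and snoRNP proteins (5 above 0), 0.10 for 14 small subunit genes (8 above 0) and 0.15 for 13 large subunit genes (10 above 0). With the mean over a gene's measured probe sets in place of the brightest, the small subunit median turned to -0.084 (0.03 without the dimmest measured probe set of HEATR1), and the medians of RNA polymerase I factors and large subunit genes were 0.06 and 0.13. With _s_at and _x_at probe sets left out, the large subunit median was 0.32 and the small subunit median 0.19. Members within a role spread further than these medians: the RNA polymerase I factors ran from -0.52 to 0.50, the small subunit genes from -0.37 to 0.45 and the large subunit genes from -0.13 to 0.46. The RNA polymerase I factors had the largest SD across genes of the 4 roles, 0.32, beside 0.16, 0.23 and 0.21 for the others in the same order. Whether the roles differ was not tested, since each gene has 1 value per array.

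RNA polymerase I itself is built from subunits of its own and subunits shared with other polymerases. Its largest subunit, POLR1A, read 102.6 on the control array and 147.6 on the FGF-AS siRNA array, a log2 ratio of 0.50. The other measured probe sets of POLR1A gave -0.33 (126.1 and 98.9) and 0.21 (94 and 109.7), so the arrays did not settle a direction for this gene. POLR1B, the second largest subunit, had 4 measured probe sets within 0.19 of 0, at -0.10 (743.4 and 693.5), 0.05, -0.05 and 0.19. POLR1C, which RNA polymerase III shares, was lower on both probe sets, with 441.6 and 306.7 (log2 ratio -0.52) and 333.7 and 294.5 (-0.18). The first ratio was the lowest of any member and exceeded the spread between probe sets, while the second did not. POLR1D, the partner of POLR1C in both enzymes, was 0.07 on its brightest probe set (2137.4 and 2248.2) and -0.26 and -0.20 on the other two. POLR1E, a subunit of polymerase I alone, went from 376.9 to 432 (0.19), with 0.30 and -0.56 on its dimmer probe sets. Over these 5 member subunits the median was 0.07, which is not a value for the whole enzyme. Its other subunits are on a comparison list given below, with a median of 0.28 over 10 genes that are not all subunits.

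Initiation at the rRNA gene promoter needs the upstream binding factor UBTF, the selectivity factor SL1 and RRN3, which carries the polymerase to them. UBTF was higher on all 4 measured probe sets, with 243.1 and 280.7 on the brightest (log2 ratio 0.20) and 0.13, 0.28 and 0.47 on the others. RRN3 read 436.1 and 494.3 (0.18) on a probe set of the _s_at type, which can match several transcripts, and this gene has near-identical pseudogene copies, so its signal is uncertain. Among the SL1 subunits, directions were split. TAF1B was lower on both probe sets (302.9 to 234, log2 ratio -0.36, and -0.11), and TAF1C was lower by the same amount on both (176.8 to 131.8 and 93.9 to 69.3, each -0.41). TAF1A was at 0.24 (150.2 and 178.5) and TAF1D at 0.10 (101.3 and 109.1), each with 1 probe set. The median of these 4 SL1 subunits was -0.13. It leaves out TBP, a further SL1 subunit outside the member list, which stood at 0.35 (237.4 and 303.4), so SL1 as a whole had no settled direction. On the deposited scale, TAF1B and TAF1C were 2 of the 4 members that were lower by more than the probe set SD. TCOF1, which encodes treacle, a nucleolar cofactor of rRNA gene transcription, was higher on all 3 measured probe sets. It read 292.2 and 385 on its brightest probe set (0.39), 237.8 and 433.7 on the second (0.85, or 1.80-fold) and 38.5 and 45.1 on a dim one (0.20). The second was the highest ratio of all measured member probe sets.

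**Figure D2:**
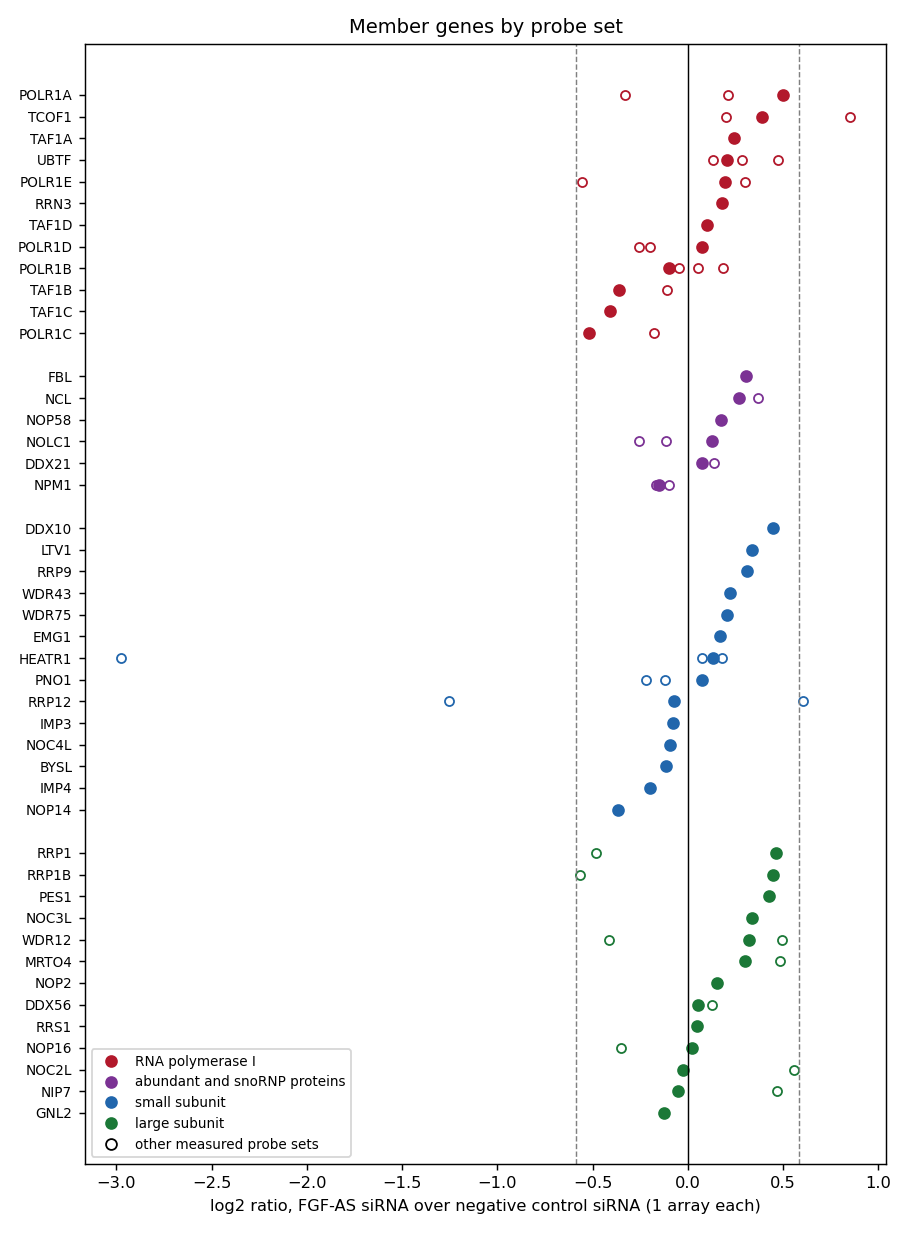
Log2 ratio of FGF-AS siRNA over negative control siRNA for the 45 members, grouped by role and ordered within it, with the brightest probe set filled and the other measured probe sets open. Dashed lines mark 1.5-fold; no filled point passes them, and the open points that do belong to TCOF1, HEATR1 and RRP12.

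Abundant nucleolar proteins and the core proteins of snoRNPs came next. FBL, which encodes fibrillarin, the methyltransferase of box C/D snoRNPs, read 3713.2 and 4583.5, a log2 ratio of 0.30. NCL, nucleolin, was higher on both probe sets, at 7456.1 and 8994.1 (0.27) and at 22 and 30.1 (0.37), the latter barely above the minimum. NOP58, a further core protein of box C/D snoRNPs, read 2239.7 and 2525.5 (0.17). None of these differences exceeded the probe set SD on the deposited scale. DDX21, a DEAD-box helicase active in rRNA transcription and processing, stood at 0.07 and 0.13. NOLC1, a chaperone of snoRNPs, gave 0.13 on its brightest probe set and -0.11 and -0.26 on the others. NPM1, nucleophosmin, a histone and ribosome chaperone, went the other way on all 3 probe sets, with 15412.4 and 13884 (-0.15), 13868.1 and 12927.1 (-0.10), and 10419.2 and 9277.9 (-0.17). All 3 are of the _s_at or _x_at type, NPM1 has many processed pseudogenes, and its signals lie near the top of the range (21359.6 and 20791.3 at most), so this small difference is uncertain.

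The small subunit processome forms on the U3 snoRNP while the precursor is still being transcribed. Its earliest complex, the t-UTPs, also acts in rRNA transcription, and its members WDR43 (338.4 and 395.2), WDR75 (706.6 and 815.8) and HEATR1 (1005.2 and 1102.4) stood at 0.22, 0.21 and 0.13. HEATR1 was nearly equal on the 3 brightest of its 4 measured probe sets, with log2 ratios of 0.13, 0.18 and 0.07. Its dimmest measured probe set read 166.8 on the control array and 15.9 on the FGF-AS siRNA array, a log2 ratio of -2.97 and the largest difference among all member probe sets. A further HEATR1 probe set under the minimum also read lower (18.2 and 6). Which HEATR1 transcripts these probe sets match was not examined here.

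Of the other processome genes, DDX10, a DEAD-box helicase, was the highest, at 677 and 925.7 (log2 ratio 0.45), which exceeded the probe set SD. RRP9, a U3-specific protein, read 189.6 and 236.1 (0.31), and EMG1, a methyltransferase of 18S rRNA, 1209.1 and 1357.4 (0.17). NOP14 was the lowest, at 482 and 372.8 (-0.37), just beyond that SD. NOC4L, which binds NOP14 in the processome, stood at -0.09, and IMP3 and IMP4, which bridge the U3 RNA and the precursor, stood at -0.08 and -0.20. Late factors that stay on the precursor of the small subunit into the cytoplasm had a median of -0.00, with LTV1 at 0.33 (454.3 and 574.6), PNO1 at 0.07 and BYSL at -0.12. RRP12, an export factor and the last of these 4, was nearly equal on its brightest probe set (759.6 and 721, -0.07), but its probe sets disagreed: a probe set of the _x_at type, whose probes can match unrelated transcripts, read 449.8 and 184.8 (-1.26), and a dim one 24.9 and 41 (0.60).

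For the large subunit, the PeBoW complex of PES1, BOP1 and WDR12 is required for the maturation of 28S rRNA. PES1 read 1017.4 and 1370.8, a log2 ratio of 0.43 and more than the probe set SD. WDR12 read 1751.7 and 2187 (0.32), with dim probe sets at 0.49 and -0.41. The paralogs RRP1 and RRP1B, both large subunit assembly factors, were among the highest on their brightest probe sets, at 0.46 (119.5 and 167.2) and 0.44 (1419.3 and 1932.6). Their second probe sets went the other way, at -0.48 (57.4 and 39.4) and -0.57 (185.6 and 123.4), so neither gene has a settled direction. NOC3L, an assembly factor, read 929.6 and 1173.6 (0.33). MRTO4, which is related to a protein of the ribosomal stalk, was higher on both probe sets, at 0.30 (690.8 and 852.4) and 0.49 (187.7 and 265.2).

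The remaining large subunit genes lay closer to equality. NOP2, a methyltransferase of 28S rRNA, stood at 0.15, the helicase DDX56 at 0.05 and 0.13, and RRS1, which helps to bring the 5S rRNP into the subunit, at 0.05. GNL2, a nucleolar GTPase, was lowest of this role at -0.13 (515.3 and 471.5). NOP16 (0.02 and -0.35), NOC2L (-0.02 and 0.55) and NIP7 (-0.05 and 0.47), all assembly factors, had probe sets on both sides of 0.

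Agreement between probe sets was thus limited. Of the 24 members with more than 1 measured probe set, 10 had all of them in 1 direction (6 higher and 4 lower) and 14 did not. Among all measured genes of that kind, 49.1% had all probe sets in 1 direction, 17.8% higher and 31.4% lower. The 6 members higher throughout were UBTF, TCOF1, NCL, DDX21, MRTO4 and DDX56, and the 4 lower throughout were POLR1C, TAF1B, TAF1C and NPM1. Of the 84 measured member probe sets, 4 passed 1.5-fold and 2 passed 2-fold, against 22.9% and 7.35% of measured probe sets on the whole array. Those past 1.5-fold were the TCOF1, HEATR1 and RRP12 probe sets given above. The SD between probe sets of 1 member was 0.56, or 0.36 without the dimmest measured probe set of HEATR1.

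Mature rRNA carries no poly(A) tail, and the labelled RNA was primed with oligo-dT, so rRNA control probe sets report what rRNA entered the labelling rather than its amount in the cell. Of the 6, 5 differed by more than the brightest probe set of any member. For 18S rRNA, the 5′ probe set read 11.4 on the control array and 153.8 on the FGF-AS siRNA array, the middle one 30.5 and 295.3, and the 3′ one 39.5 and 398.2, log2 ratios of 3.19, 3.04 and 3.15. For 28S rRNA, the 5′ probe set read 137.9 and 1337.4 (3.22), the middle one 491.1 and 2100 (2.08) and the 3′ one 7.7 and 5.9, both under the minimum. The first 4 places of all 27341 probe sets above the minimum, controls included, were taken by the 28S 5′ probe set and those of 18S rRNA, and the 28S middle probe set ranked 51. The array also has 2 probe sets annotated to RNA45SN5, a gene of the 45S rRNA precursor, and these were not higher: the brighter read 104.3 and 94 (-0.14) and the dim one, of the _x_at type, 43.3 and 23.2 (-0.75).

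Other control probe sets moved as well. The bacterial transcripts dap, lys, phe and thr, which the array design provides as poly(A) controls of the labelling, were lower with FGF-AS siRNA on all 8 of their 5′ probe sets (median log2 ratio -0.71, from -1.25 to -0.25) and all 8 middle ones (median -0.47), and on 6 of 8 at the 3′ end (median -0.14). Controls added at hybridisation were nearly equal (18 probe sets, median 0.01, from -0.16 to 0.17). The arrays therefore differed in rRNA signal and in the 5′ signal of the labelling controls, and the part of either in the members' ratios was not tested.

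**Figure D3:**
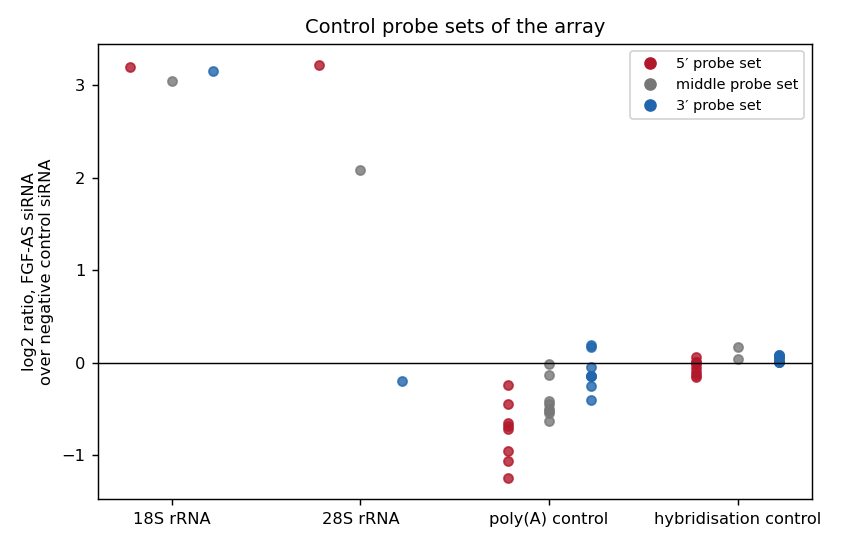
Log2 ratio of FGF-AS siRNA over negative control siRNA for control probe sets, 1 point per probe set, coloured by position in the transcript. Of the 6 rRNA probe sets 5 lie above 2, all 8 poly(A) 5′ probe sets lie below 0, and the 18 hybridisation controls lie within 0.17 of 0.

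Further genes of the pathway were taken from lists that did not overlap with the members. Over 112 measured ribosome biogenesis genes of 118 listed, the median log2 ratio was 0.05, and 65 (58%) were above 0. The 10 other genes of RNA polymerase I transcription had a median of 0.28 with 9 above 0 and none past 1.5-fold. They include POLR2E, POLR2F, POLR2H, POLR2K and POLR2L, subunits shared by all nuclear RNA polymerases, so this list is not particular to polymerase I. Furthest from 0 were POLR2K (1138.5 and 1701.3, 0.58) and TTF1 (247.1 and 337.1, 0.44), the termination factor of rRNA genes. TBP (0.35) and POLR1F (0.33, but -0.41 on its second probe set) followed. The 45 other small subunit genes had a median of 0.02, with 25 above 0, and of 0.09 under median centring (29 above 0) and quantile normalization (28 above 0). Past 2-fold were NOP9 (108.2 and 222.6, 1.00) and FCF1 (112.7 and 28.1, -1.80), each contradicted by a second probe set (-0.28 and 0.03). The 48 other large subunit genes had a median of 0.05, with 27 above 0 and none past 2-fold, and of 0.12 under median centring, with 32 above 0. Furthest from 0 were DDX27 (-0.67), PELP1 (0.58), FTSJ3 (0.58) and URB1 (0.53). The 9 other snoRNP genes had a median of -0.06, which became 0.0040 under median centring, with RUVBL2, an ATPase of snoRNP assembly, at 0.40 (but -0.53 on its lowest probe set), RUVBL1 at -0.26, SHQ1 at -0.25 and NAF1 at 0.24.

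Neighbouring pathways were listed in the same way. The nuclear exosome and other RNA trimming genes had a median of 0.28 over 15 genes, with 10 above 0, and EXOSC9 (500.2 and 942.6, 0.91), EXOSC6 (0.70, but -0.62 on its lowest probe set), EXOSC8 (0.49) and XRN2 (0.35) were furthest from 0. RNA polymerase III genes had a median of -0.06 over 21 genes, with 10 above 0, and of 0.01 under median centring, 0.04 under loess and 0.06 under quantile normalization. Past 2-fold was POLR3E (359.6 and 906.9, 1.32, but -0.26 on its lowest probe set). Among the paralogous subunits, POLR3GL was just under 2-fold lower (517.8 and 256.2) and POLR3G stood at 0.65 (303.1 and 478.6, but -0.88 on its other probe set). Genes of cytosolic ribosomal proteins, the products that meet rRNA in the nucleolus, had a median of -0.04 over 52 measured genes of 79 listed, with 14 above 0. That direction turned with the scaling, since 42 of the 52 were above 0 under median centring (median 0.03) and 9 under loess (median -0.07). Furthest from 0 were the dim RPLP2 (-0.35), RPL36 (0.25), RPL27 (-0.20) and RPL24 (-0.18). Whether they differ from the members was not tested.

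**Figure D4:**
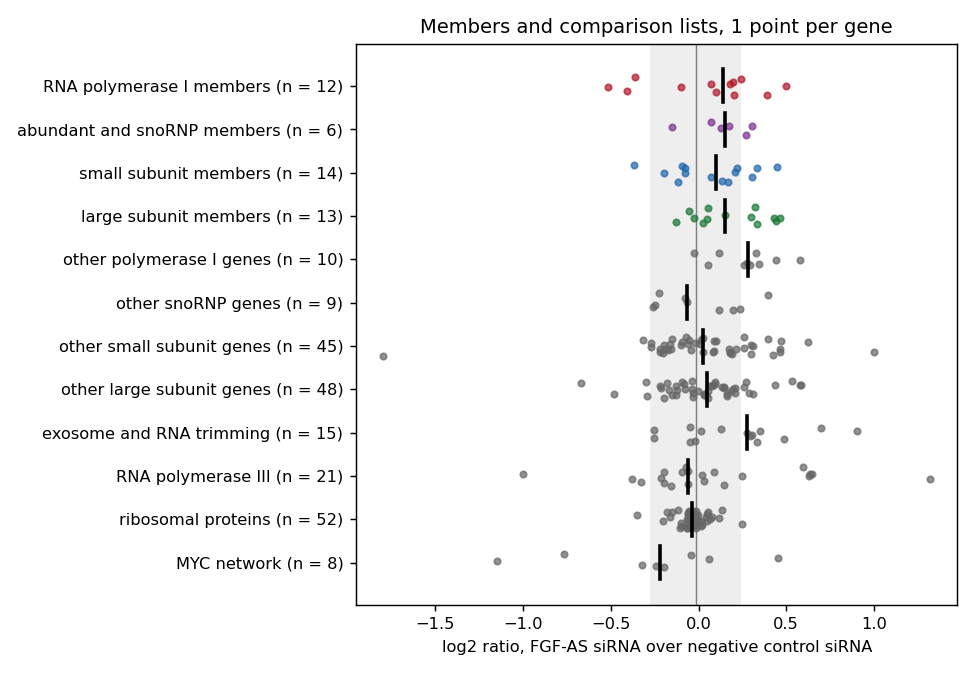
Log2 ratio of FGF-AS siRNA over negative control siRNA, 1 point per measured gene, for members by role (coloured) and comparison lists (grey), with each median as a black bar. The shaded band spans the middle of all 12347 measured genes (25th percentile -0.27, 75th percentile 0.24); the 4 member medians lie between 0.10 and 0.15, inside it.

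Lists of the MYC network and of p53 response genes had medians below 0 on the deposited scale and under the 4 other scalings. MYC, which activates many genes of ribosome production, read 5152 and 4120.5 on its 1 single-symbol probe set, a log2 ratio of -0.32. Over 8 measured genes of the MYC network, of 11 listed, the median was -0.22 and 6 were below 0. The list holds MYC as well as its antagonists, so this median has no single direction for the pathway. Past 2-fold was MXD1, a MYC antagonist (109.2 and 46, -1.15). MXI1, a second antagonist, stood at -0.77 (1285.6 and 753) and MXD3 at 0.45. Of 6 listed genes of the p53 response that disturbed ribosome production is known to engage, 4 were measured and all 4 were below 0 (median -0.65). MDM2, the ubiquitin ligase of p53, stood at -1.01 (1649.7 and 816.7), and its 8 measured probe sets ran from -3.59 to -0.71. CDKN1A stood at -0.85, RRM2B at -0.45 and MDM4 at -0.42, though probe sets of MDM4 ran from -1.24 to 0.38.

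MYC and its partner MAX bind the palindrome CACGTG, the canonical E-box, and gene starts of the members were searched for it to see what they share in sequence. RefSeq windows of 300 bases (GRCh38.p14), 250 before and 50 after an annotated start, were at hand for 41 of the 50 members. POLR1E, TCOF1, NOP58, NOLC1, RRP12, BOP1, RRP1B, RRS1 and DDX18 had none. The E-box was in a window of 15 of the 41 (36.6%), against 8.77% of all 27305 genes with a window and 12.5% of the 10083 that were measured. In 13 members (31.7%) it began within the first 36 bases after the start, against 1.12% and 1.57% with an E-box in the 50 bases after it. By role it was in a window of 7 of 13 small subunit genes, 6 of 12 large subunit genes, 2 of 6 abundant and snoRNP genes and none of 10 RNA polymerase I factors.

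The following stretches of 30 bases show the E-box in capitals just after the start of 8 members from 3 roles, 5′ to 3′ on the strand of the gene, chosen to include members with ratios above and below 0. RefSeq places each E-box in the first transcribed bases of its gene, and bases are counted from 1 at the start.
FBL at chr19:39846356-39846385, minus strand, E-box from base 7: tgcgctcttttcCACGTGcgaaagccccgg
WDR43 at chr2:28894658-28894687, plus strand, from base 4: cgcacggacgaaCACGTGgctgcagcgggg
PNO1 at chr2:68157885-68157914, plus strand, from base 10: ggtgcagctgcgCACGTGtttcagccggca
NOP14 at chr4:2963374-2963403, minus strand, from base 16: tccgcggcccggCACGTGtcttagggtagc
PES1 at chr22:30591880-30591909, minus strand, from base 14: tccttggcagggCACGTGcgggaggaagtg
MRTO4 at chr1:19251807-19251836, plus strand, from base 15: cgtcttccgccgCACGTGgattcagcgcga
NOC3L at chr10:94362903-94362932, minus strand, from base 20: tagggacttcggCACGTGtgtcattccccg
GNL2 at chr1:37595917-37595946, minus strand, from base 4: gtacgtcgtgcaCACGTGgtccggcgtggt

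The ratios of members with and without the E-box overlapped. The 14 measured members with it had a median log2 ratio of 0.19 and 10 were above 0, from -0.37 (NOP14) to 0.43 (PES1), while the 24 with a window and no E-box had a median of 0.09 and 15 were above 0, from -0.52 to 0.50. Over all measured genes the medians with and without it were -0.01 (1264 genes) and -0.02 (8819 genes). Another motif had a different distribution over the roles: CCGGAAG, a core sequence of ETS factors, searched on both strands, was in a window of 7 of 10 RNA polymerase I factors and 17 of 41 members (41.5%), against 12.2% of all genes and 22% of measured genes. On both strands, the GC box GGGCGG was in 68.3% of members, 48.3% of all genes and 75.5% of measured genes, and AAGATGGCG, a core of YY1 sites, in 3 members (7.32%), 2.14% and 4.66%. None of these motifs contains the E-box, and a match describes the sequence only.

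**Figure D5:**
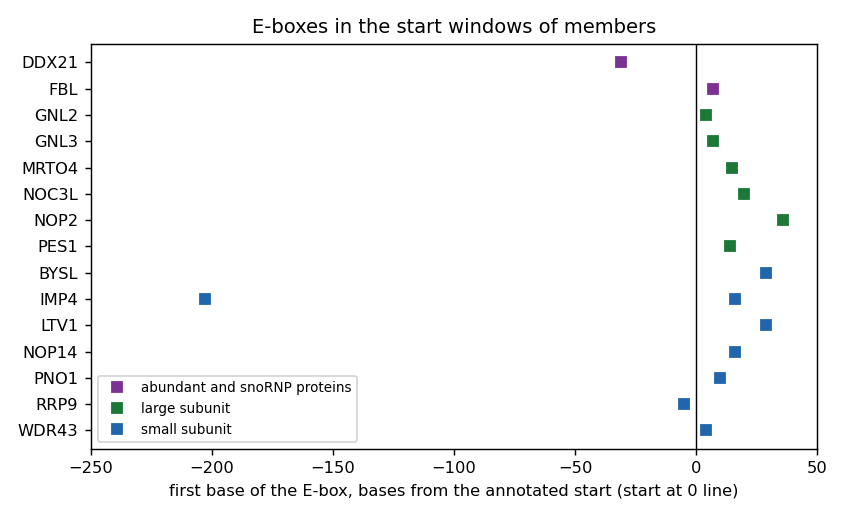
Position of the first base of each E-box in the windows of 15 members (horizontal, bases from the annotated start, with bases before it negative), coloured by role. In 13 members an E-box begins within the first 36 bases after the start, while those of DDX21 and RRP9 begin at -31 and -5 and IMP4 has a second one at -203.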

How the data were processed

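The authors deposited 1 linear intensity per probe set and array. GCOS and MAS5 appear, without versions, in the submitters' processing notes. How the arrays were scaled against each other, detection calls and the genome build are not given in the sources used here, and the precision is limited by the number of arrays. Of 54675 probe sets, 62 were controls, 41091 had 1 symbol, 1801 several and 11721 none in the platform annotation. Symbols were updated by gene identifier through RefSeq (GRCh38.p14). Ratios, offset, minima and the brightest probe set rule were computed in Python 3.11.15 with numpy 2.4.6 and pandas 2.3.3, and the procedure was tested on simulated data. No statistical test was run, because each group held 1 array. All members are named, and of each comparison list those past 2-fold or otherwise up to 4 furthest from 0. Beyond this rule, further genes of the RNA polymerase III, MYC network and p53 response lists were named after their values were seen. The members, lists and their roles were chosen with earlier results of these data known. The motif search and the grouping by probe set ending were added after values were seen. Alternatives were offsets of 1 and 50, median centring, quantile normalization, loess (fraction 0.3), scaling to a 2% trimmed mean, the mean over probe sets, leaving out _s_at and _x_at probe sets, the stricter minimum and no minimum.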

Additional observations from a re-analysis of the deposited data

How the results depend on the processing

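Over 10 alternatives the median of RNA polymerase I factors ran from 0.06 to 0.24 and that of abundant and snoRNP proteins from 0.13 to 0.22. The median of all members ran from 0.10 to 0.20, the highest under median centring, and that of large subunit genes from 0.10 to 0.32, the highest with _s_at and _x_at probe sets left out. The median of small subunit genes turned to -0.084 with the mean over probe sets, and was 0.03 under the same setting without the dimmest measured HEATR1 probe set, an alternative chosen after seeing the data. That of other ribosome biogenesis genes moved from 0.05 to 0.12 under median centring and to 0.10 under each of quantile normalization, loess and trimmed mean scaling. Members past 1.5-fold numbered 2 under quantile normalization (POLR1A, 0.64, and RRP1, 0.59), 1 under loess (POLR1A, 0.61), 1 with the mean over probe sets (HEATR1, -0.65) and 1 without _s_at and _x_at probe sets (RRP12, 0.60), and no member passed 2-fold under any of the 10. Of 45 members, 33 kept their sign in all alternatives that gave a value (23 higher, 10 lower). The 12 others were HEATR1, NIP7, NOC2L, NOLC1, NOP16, PNO1, POLR1B, POLR1D, POLR1E, RRP1, RRP12 and RRP1B. Each of these 12 has more than 1 measured probe set, as 24 of the members do. For the 21 members with 1 measured probe set, the alternatives that average or leave out probe sets could not change the sign. Their unchanged sign is therefore no check of agreement between probe sets. Over all genes the share of 2-fold calls that were higher was 43% as deposited, 53.6% under median centring, 57.6% under loess and 60.4% under quantile normalization. No paired analysis was possible because each group held 1 array, and no array could be left out.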

Other observations

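All 6 measured member probe sets of the _x_at type, whose probes can match unrelated transcripts, had log2 ratios below 0 (median -0.32), against 58.4% of the 2582 measured probe sets of that type on the array. Of the 32 measured member probe sets of the _s_at type, 15 were below 0 (median 0.04), against 59.8% of the 7993 on the array. Among measured member probe sets with neither an _s_at, _a_at nor _x_at ending, 33 of 46 were above 0 and 28.3% below. For all such probe sets on the array, 55% were below 0.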
